A study of Homo sapiens with 2 samples.

Results

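The 10 immediate early genes described here are FOS, FOSB, FOSL1, FOSL2, JUN, JUNB, JUND, ATF3, EGR1 and IER2. They were chosen by name, as members of the AP-1 and EGR groups of early response genes, out of 20098 protein-coding genes. The choice was made with earlier results of these data known. In A673, an established Ewing sarcoma cell line labelled WT and grown in medium with fetal calf serum, 1 chromatin immunoprecipitation sequencing (ChIP-seq) library for the transcription factor MYBL2 and 1 input library of sheared chromatin were made. The labels name an antibody against MYBL2, and the study's methods name the phosphorylated, activated form as its target. The deposited list holds the regions, called peaks, where the ChIP library exceeded a local background estimated with the input. No serum starvation or stimulation was stated, and the labels name no treatment. Each group had 1 library and no replicate, so no difference could be tested. Poisson intervals of pileups and fold enrichments cover the counting error of sequenced fragments only, and binomial intervals of shares of genes cover only the small number of genes.

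Immediate early genes are transcribed within minutes of a growth factor or stress signal, without new protein synthesis. Mitogen-activated kinases act on serum response factor with its ETS partners at CArG boxes, and on CREB family proteins at cyclic AMP response elements. The Fos and Jun proteins pair through leucine zippers to form AP-1, which binds TPA response elements, and EGR1 is a zinc finger factor with a GC-rich site. MYBL2 is a cell cycle factor of the MYB family, best known for activating genes of mitosis with the MuvB complex and FOXM1.

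A peak was assigned to a gene when it overlapped the gene body or came within 1000 bp of an annotated transcription start site (TSS). By this rule 35 of 66954 peaks belonged to the 10 genes. Of these, 20 lay both at a promoter and in the gene body, 4 only at a promoter, and 11 only in the gene body. All 10 genes had a promoter peak (exact binomial 95% interval 69.2 to 100%). The background was 59.4% of all coding genes, 43.1% of coding genes of at most 10 kb, and 78.4% of coding genes with a CpG-rich promoter. The last comparison is the closest, since all 10 promoters had a CpG observed/expected ratio of at least 0.6. The interval of the 10 genes includes 78.4%, but they were named and not drawn at random, so it is no test.

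The genes differed far more in how much of the gene body was under peaks. JUND and IER2 were covered over 100% of their length and JUNB over 79.9%, whereas ATF3 was covered over 4.54%, FOSL2 over 4.71% and FOSB over 6.75%. EGR1 (45.6%), JUN (25.5%), FOSL1 (17.97%) and FOS (9.13%) lay in between. At least 50% of the body was under peaks in 3 of 10 genes (exact binomial 95% interval 6.67 to 65.2%), against 2.96% of all coding genes and 8.80% of coding genes of at most 10 kb. Both backgrounds include genes without a promoter peak, which all 10 genes had. The share among genes with a promoter peak was not computed and would be higher if most covered genes have one. Short genes are covered more easily by a peak of given width, and 8 of the 10 genes were at most 10 kb long, with a median length of 5843 bp against 27256.5 bp for coding genes. The interval of the 3 genes includes the 8.80% of short genes, but for genes picked by name this is no test either.

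**Figure D1:**
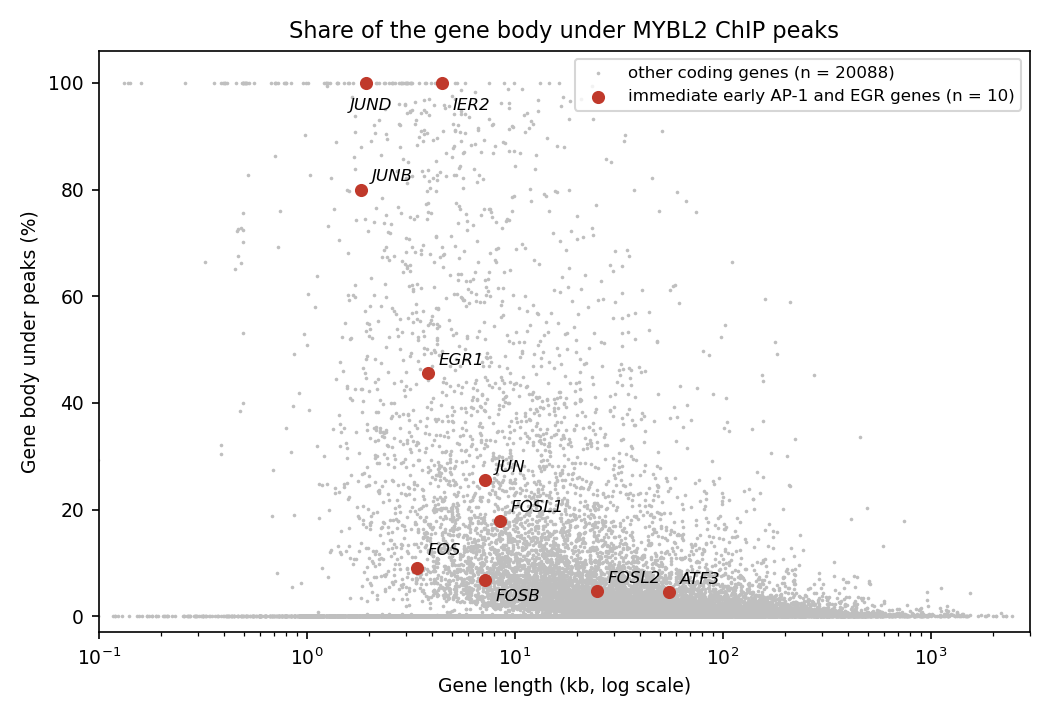
Share of the gene body under MYBL2 peaks (%) against gene length (kb, log axis), with 1 point per coding gene and the 10 immediate early genes named. JUND, IER2 and JUNB lie above 50% at lengths of 1830 to 4501 bp, while FOSL2 and ATF3, the longest of the 10, lie below 5%.

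The median share of the body under peaks was 21.7% in the 10 genes. It was 0.880% over all coding genes, 3.07% over coding genes with a promoter peak, and 16.4% over those with a promoter peak and a length of at most 10 kb. This median depended on low peaks. With peaks of fold enrichment of at least 5 alone it was 9.45%, against 10.3% over the same short genes with a promoter peak. All 10 genes kept a promoter peak at this level. Over the 1846 of 2241 such short genes that also kept one, the median was 14.0%. In FOSB and EGR1 the promoter peak kept was not the peak over the start. It was an intron peak in FOSB, with its summit 673 bp from the nearest annotated TSS, and an upstream peak in EGR1. The peaks over their starts had fold enrichments of 3.37 and 4.72. The median of the widest peak per gene was 1561.5 bp, against 907 bp in coding genes with any peak and 985 bp in such genes of at most 10 kb. A peak of at least 1000 bp was present at 7 of the 10 genes and at 44.3% of coding genes with any peak. Peak by peak, 28.6% of the 35 peaks were at least 1000 bp wide, against 11.2% of all peaks. Of the 35 peaks 24 lay at a promoter, whereas 20723 of all 66954 peaks lay at a coding promoter. The share of wide peaks among promoter peaks alone was not computed.

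Peak height was measured as the authors' fold enrichment, the fragment pileup at the summit over the local background, each with 1 added. IER2 had the largest fold enrichment, 28.1 (95% Poisson interval 23.4 to 33.4), followed by JUND with 24.7 (20.3 to 29.8), JUNB with 20.7 (16.7 to 25.3), FOSL1 with 16.1 (12.8 to 20.0) and FOS with 12.8 (9.73 to 16.6). The strongest peaks of JUN (8.76), ATF3 (8.57), FOSB (8.19), EGR1 (6.18) and FOSL2 (5.84) were lower. The intervals of every pair of neighbours in this order overlapped. Those of IER2, JUND and JUNB did not overlap that of FOS or any lower gene. The median of the 10 values was 10.8, against 8.54 for coding genes with any peak and 9.18 for such genes of at most 10 kb. With promoter peaks alone the median of the 10 genes was 8.66, against 8.68 for coding genes with a promoter peak and 9.21 for such genes of at most 10 kb.

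**Figure D2:**
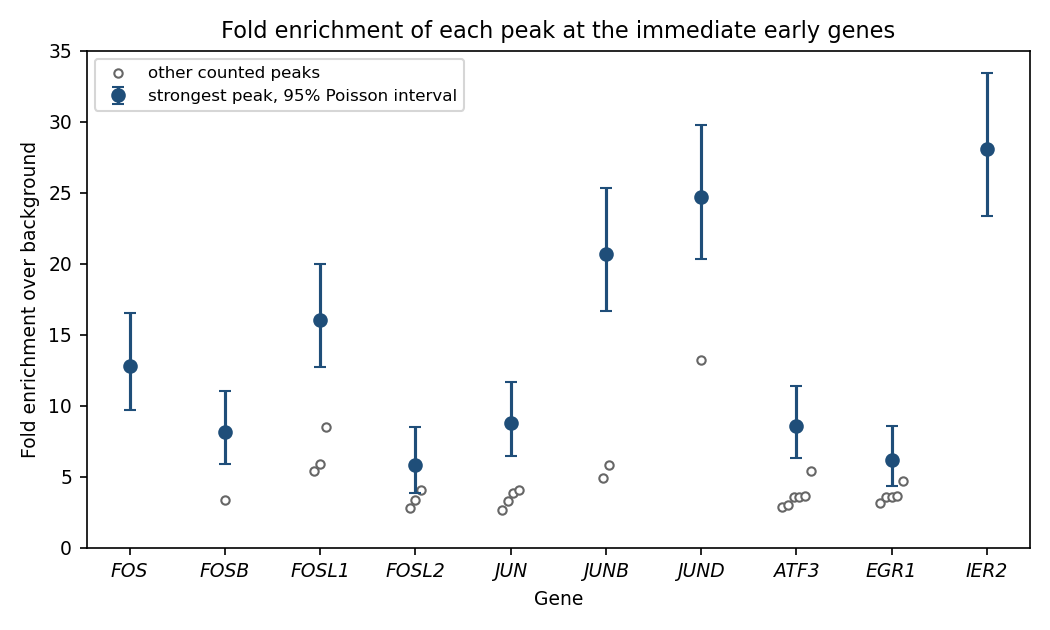
Fold enrichment at the summit of every peak of the 10 genes, with the strongest peak of each gene as a filled point with its 95% Poisson interval and the other peaks as open points. IER2, JUND and JUNB hold the highest peaks, and the EGR1 and FOSL2 peaks all lie at 6.18 or below.

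The map of the loci shows where these peaks lay relative to each gene.

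**Figure D3:**
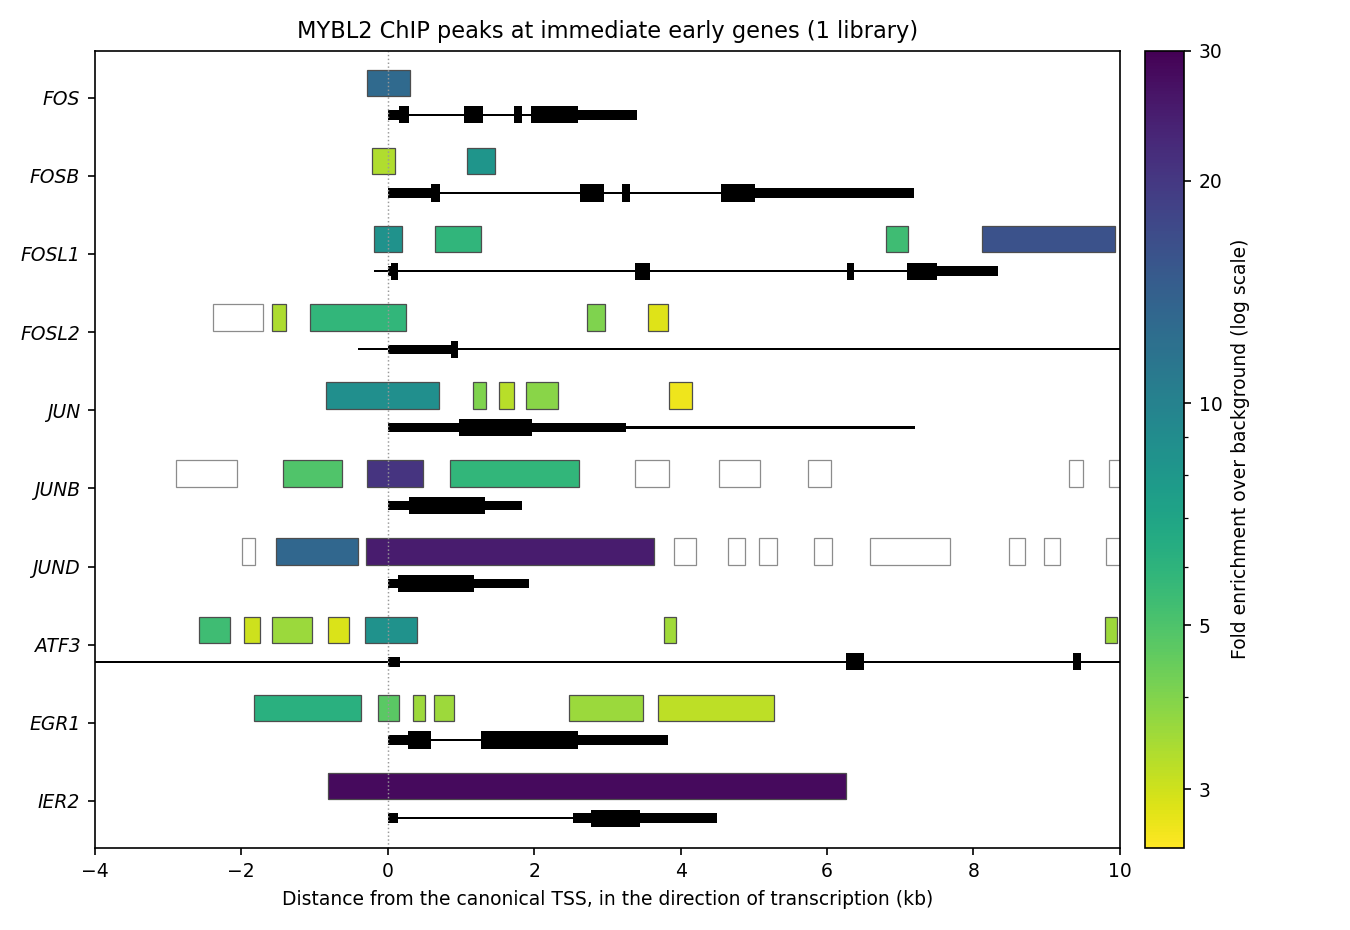
MYBL2 peaks around the 10 genes, drawn by distance from the start of the canonical transcript (kb, transcription to the right), with filled boxes coloured by fold enrichment for counted peaks, white boxes for other nearby peaks, and gene, exon and coding sequence as lines of rising thickness. IER2 lies within 1 peak of 7089 bp, JUND within 1 peak of 3938 bp, while the single FOS peak of 595 bp lies over the start.

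FOS encodes the founding Fos protein, which cannot pair with itself and needs a Jun partner to bind DNA. The gene (ENSG00000170345, plus strand, 3405 bp) had a single peak at chr14:75745245-75745839, with a pileup of 56 fragments (42.3 to 72.7). Its summit lay 38 bp downstream of the TSS, in the 5′ UTR. The peak ran from 286 bp upstream to 308 bp downstream of the TSS, so it covered 100% of the 5′ UTR, 12.4% of the coding sequence and 0% of the 3′ UTR. FOS thus had a narrow peak of high fold enrichment confined to its start. The 250 bases before the annotated start were 100% under the peak and are shown in transcription direction (GRCh37, the hg19 coordinates). They hold no exact match to any of the 8 motifs sought, and variants of these motifs were not counted:
FOS, chr14:75745279-75745528, plus strand: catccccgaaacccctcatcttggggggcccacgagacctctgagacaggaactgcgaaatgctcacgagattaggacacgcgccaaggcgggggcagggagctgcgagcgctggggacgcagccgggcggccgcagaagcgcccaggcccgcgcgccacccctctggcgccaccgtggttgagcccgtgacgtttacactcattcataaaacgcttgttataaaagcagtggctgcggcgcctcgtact

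FOSB (ENSG00000125740, chr19:45971253-45978437, 7185 bp), a Fos paralog known for a stable splice form in neurons, had 2 peaks. The peak at the start, chr19:45971045-45971355, was low, with a fold enrichment of 3.37 (1.94 to 5.50) from 14 fragments. The stronger peak, chr19:45972338-45972719, had its summit in an intron 1207 bp downstream of the TSS, with a fold enrichment of 8.19 (5.93 to 11.0) from 41 fragments. The intervals of the 2 peaks did not overlap, and the coding sequence and 3′ UTR were at 0% under peaks.

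FOSL1, which encodes FRA-1, a Fos protein without the transactivation domain of FOS, had 4 peaks. The peak at its own start, chr11:65667668-65668048, had a fold enrichment of 8.50 (6.05 to 11.6), and the introns held peaks of 5.92 and 5.39. The strongest of the 4, chr11:65657926-65659745, was 1820 bp wide and peaked beyond the 3′ end of FOSL1, 9684 bp from the TSS. It also lay at the promoter of CCDC85B, and 226 bp of it was inside the FOSL1 record. The rank of FOSL1 by fold enrichment therefore rests on a peak shared with a neighbouring gene, and with promoter peaks alone its value was 8.50.

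FOSL2, which encodes FRA-2, had 4 peaks over a record of 24870 bp, with fold enrichments of 2.82 to 5.84. The strongest, chr2:28614663-28615974, was 1312 bp wide with 25 fragments, and its summit lay 612 bp upstream of the canonical TSS. FOSL2 had the smallest of the 10 largest fold enrichments, and its coding sequence and 3′ UTR were at 0% under peaks. A further pair of its peaks lay at promoters of lncRNA genes inside the gene, FOSL2-AS1 among them.

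JUN encodes the Jun protein that pairs with itself or with Fos, and like JUNB and JUND it has no intron. The gene (ENSG00000177606, minus strand) had 5 peaks. The peak at the start, chr1:59249018-59250562, was 1545 bp wide, with a fold enrichment of 8.76 (6.44 to 11.7), 45 fragments and a summit 18 bp downstream of the TSS. It also lay at the promoters of LINC01135 and ENSG00000290013, which start nearby. The other 4 peaks were 183 to 429 bp wide, with fold enrichments of 2.66 to 4.05 and summits 1259 to 4072 bp downstream of the TSS. Together they gave a share of 46.1% of the coding sequence and 27.4% of the 3′ UTR under peaks. The gene record extends beyond the canonical transcript, and 46.4% of the canonical transcript was under peaks against 25.5% of the record.

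JUNB, a Jun protein that can restrain JUN, is 1830 bp long (ENSG00000171223, chr19:12902300-12904129, plus strand). Its strongest peak, chr19:12902011-12902784, had a fold enrichment of 20.7, a pileup of 91 fragments (73.3 to 111.7) and a summit 7 bp upstream of the TSS. A second peak of 1766 bp, with a fold enrichment of 5.84 (3.86 to 8.52), began inside the coding sequence, ran 788 bp past the 3′ end and had its summit there. A peak of 802 bp upstream had a fold enrichment of 4.94. The high peak at JUNB was thus narrow, and most of the gene body beyond it was under a lower peak. The promoter of HOOK2 was also within 1000 bp of both gene body peaks.

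JUND, the Jun protein present in many resting cells, is 1929 bp long (ENSG00000130522, chr19:18390504-18392432, minus strand). A single peak of 3938 bp, chr19:18388790-18392727, covered the gene from 295 bp upstream of the TSS to 1714 bp past the 3′ end. Its pileup was 109 fragments (89.5 to 131.5), and its summit lay 71 bp downstream of the TSS in the 5′ UTR. A separate upstream peak of 1120 bp had a fold enrichment of 13.3 (10.1 to 17.1). By value this was itself higher than the strongest peaks of FOS, JUN, ATF3, FOSB, EGR1 and FOSL2. JUND therefore combined a high summit at the start with coverage of its whole transcribed length.

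The strongest summits of JUN, JUNB and JUND all lay within 100 bp of the TSS, and the 250 bases before each start were 100% under peaks. Each of these stretches held a CCAAT box, at -87 in JUN, -67 in JUNB and -74 in JUND, which none of the other 7 promoters held between 250 bp before and 50 bp after the canonical TSS. A CCAAT box occurred in 36.0% of coding promoters over the same window. JUND also held a cyclic AMP response element at -200 (2.68% of coding promoters) and MYB sites at -143 and -65 (at least 1 in 22.1%). The sequences are shown in transcription direction, with the motifs in capitals:
JUN, chr1:59249721-59249970, minus strand: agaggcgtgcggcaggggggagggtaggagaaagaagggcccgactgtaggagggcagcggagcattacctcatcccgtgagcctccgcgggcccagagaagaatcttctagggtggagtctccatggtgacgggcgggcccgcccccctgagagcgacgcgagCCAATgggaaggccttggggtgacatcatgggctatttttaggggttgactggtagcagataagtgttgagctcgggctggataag
JUNB, chr19:12902050-12902299, plus strand: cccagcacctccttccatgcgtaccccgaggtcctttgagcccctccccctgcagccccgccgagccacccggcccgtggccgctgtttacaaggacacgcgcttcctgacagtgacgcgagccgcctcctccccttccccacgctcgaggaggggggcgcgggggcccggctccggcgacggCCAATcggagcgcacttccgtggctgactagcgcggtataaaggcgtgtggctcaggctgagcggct
JUND, chr19:18392433-18392682, minus strand: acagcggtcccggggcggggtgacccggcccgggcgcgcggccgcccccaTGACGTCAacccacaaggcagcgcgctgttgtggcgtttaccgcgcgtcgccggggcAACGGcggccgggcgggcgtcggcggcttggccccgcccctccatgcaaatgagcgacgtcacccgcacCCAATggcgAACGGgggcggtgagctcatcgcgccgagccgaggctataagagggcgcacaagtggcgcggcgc

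ATF3 encodes a stress-induced leucine zipper protein that pairs with Jun proteins and often represses. Its record is 55444 bp long because of distant upstream starts, while the canonical transcript is 12015 bp. Of its 7 peaks, the strongest was 711 bp wide, with a fold enrichment of 8.57 (6.33 to 11.4), 46 fragments and a summit 39 bp upstream of the canonical TSS. The other 6 peaks had fold enrichments of 2.88 to 5.40, and 4 of them lay 752 to 2315 bp upstream of that TSS by summit. ATF3 had the most peaks of the 10 genes, 97.7% of its 5′ UTR under peaks, and a coding sequence and 3′ UTR at 0%.

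EGR1 encodes a zinc finger factor induced by growth factors. It differed from the other well-covered genes in that 45.6% of its body was under peaks, none of them high. The gene (ENSG00000120738, chr5:137801168-137804992, plus strand) had 6 peaks. The peak over the start, chr5:137801040-137801323, had a fold enrichment of 4.72 (2.97 to 7.16) from 20 fragments and a summit 14 bp downstream of the TSS. The strongest of the 6, chr5:137799340-137800805, was 1466 bp wide with a fold enrichment of 6.18 (4.33 to 8.56), and its summit lay 1338 bp upstream, outside the gene. This peak and the peak over the start also lay at the promoter of another gene, ENSG00000289267, so neither can be assigned to EGR1 alone. The 3′ UTR was 83.0% under peaks, mainly under a peak of 1012 bp with a fold enrichment of 3.64 (2.36 to 5.38), and a peak of 1578 bp with 3.19 (2.13 to 4.62) began at the end of the gene. With peaks of fold enrichment of at least 5 alone, 0% of the EGR1 body was covered.

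CArG boxes, the binding sites of serum response factor, were sought in the 1000 bp before the canonical TSS, a scan chosen after the values were seen. They occurred in EGR1, FOS and FOSB, which is 3 of 10 genes, against 5.06% of coding genes. EGR1 held 5. Those at -418 and -380 lay under the upstream peak, the one at -364 straddled the edge of that peak, and those at -105 and -83 lay under the peak at the start. The FOS box at -314 lay outside the FOS peak, 19 bp from its edge, and the FOSB box at -274 lay 56 bp from the FOSB peak at the start. Each box is shown in capitals with 10 bases either side, because the peak edges fall between or beside them:
FOS, chr14:75745207-75745236, plus strand: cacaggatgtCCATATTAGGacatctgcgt
FOSB, chr19:45970970-45970999, plus strand: cggccgagctCCTTATATGGctaattgcgt
EGR1, chr5:137800740-137800769, plus strand: cccggaaatgCCATATAAGGagcaggaagg
EGR1, chr5:137800778-137800807, plus strand: ccggaacaacCCTTATTTGGgcagcacctt
EGR1, chr5:137800794-137800823, plus strand: ttgggcagcaCCTTATTTGGagtggcccga
EGR1, chr5:137801053-137801082, plus strand: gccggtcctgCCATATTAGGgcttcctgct
EGR1, chr5:137801075-137801104, plus strand: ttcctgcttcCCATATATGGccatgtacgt

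The 250 bases before the EGR1 start, of which 51.2% lay under a peak, show the 2 boxes nearest the TSS, a MYB site at -42 and a CHR element at -29, the latter a site of the MuvB complex in cell cycle promoters. A MYB site occurred in 3 of the 10 promoters, against 22.1% of coding promoters, and a CHR element in 1 of 10, against 12.8%. In the sequence all are in capitals, and the MYB site and CHR element read on the opposite strand:
EGR1, chr5:137800918-137801167, plus strand: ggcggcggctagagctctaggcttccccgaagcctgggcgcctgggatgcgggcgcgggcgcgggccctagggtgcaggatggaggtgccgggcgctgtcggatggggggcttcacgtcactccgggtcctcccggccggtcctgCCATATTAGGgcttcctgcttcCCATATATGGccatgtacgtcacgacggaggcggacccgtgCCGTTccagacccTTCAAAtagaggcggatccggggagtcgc

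IER2, a growth factor induced gene whose product is a nuclear protein, had the widest and strongest peak of the 10 genes. The peak, chr19:13260403-13267491, was 7089 bp wide, with a pileup of 124 fragments (103.1 to 147.8). It began 822 bp before the start of the gene (ENSG00000160888, chr19:13261225-13265725, plus strand, 4501 bp) and ended 1766 bp past its 3′ end. Among all 66954 peaks it ranked 86 by width and 211 by fold enrichment. Its summit lay 2670 bp downstream of the canonical TSS, in the 5′ UTR, and 1106 bp from the nearest annotated TSS, so it fell outside every promoter window of IER2. The peak also reached promoters of STX10 and 2 lncRNA genes, so the signal cannot be divided among them.

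Split by gene feature, 61.3% of the 5′ UTR bases of the 10 genes were under peaks, 34.4% of the coding sequence, 26.5% of the 3′ UTR and 12.1% of the introns. In other coding genes of at most 10 kb the shares were 30.8%, 11.2%, 11.2% and 9.91%, and in all other coding genes 37.0%, 5.18%, 4.47% and 1.74%. Both sets include genes without a promoter peak, whereas all 10 genes had one. Of coding genes of at most 10 kb, 43.1% had one. The feature shares over genes with a promoter peak were not computed, so these backgrounds are not matched for it. The difference in the coding sequence and 3′ UTR rested largely on JUNB, JUND and IER2. In the other 7 genes the shares were 51.2% of the 5′ UTR, 14.1% of the coding sequence, 12.8% of the 3′ UTR and 6.79% of the introns. The 3′ end of the transcript was under a peak in 5 of the 10 genes, namely FOSL1, JUNB, JUND, EGR1 and IER2. The background was 11.8% of coding genes with a promoter peak and 26.1% of those of at most 10 kb. In FOSL1, JUNB and IER2 the peak over the 3′ end also lay at the promoter of a neighbouring gene, CCDC85B, HOOK2 and STX10 respectively. The strongest summit lay within 100 bp of the canonical TSS in 5, namely FOS, JUN, JUNB, JUND and ATF3, which is near the background of 41.9% and 44.6% in the same sets of genes.

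**Figure D4:**
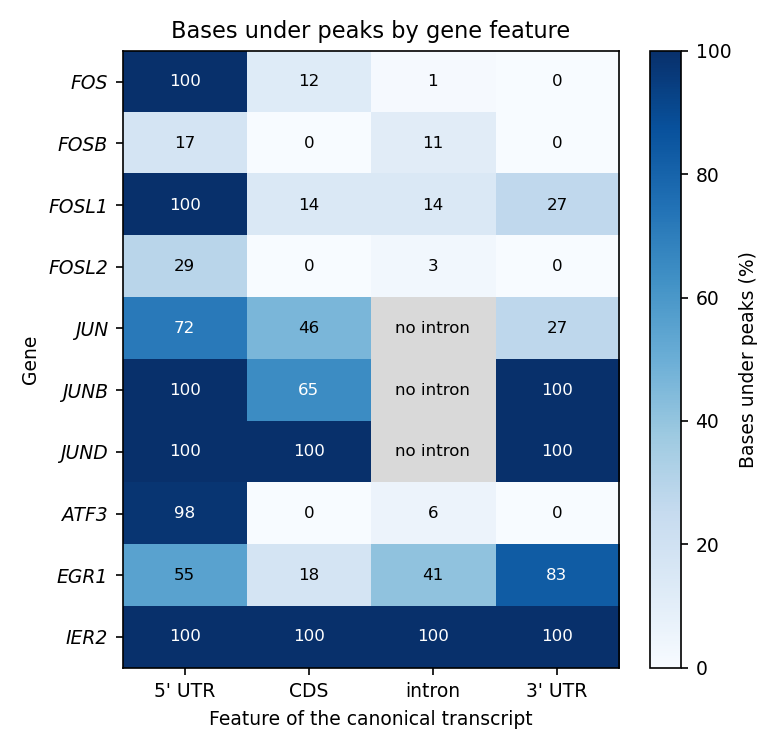
Share of each gene feature (5′ UTR, coding sequence, 3′ UTR and intron of the canonical transcript) under MYBL2 peaks (%) in the 10 genes. JUND and IER2 are at 100% in every feature they have, and FOSB, FOSL2 and ATF3 are at 0% in the coding sequence and 3′ UTR.

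The local background, which rises above a genome-wide floor of 3.45 fragments where the input is rich, was at the floor in 14 of the 35 peaks, against 20.5% of all peaks. The strongest peaks of 5 genes were at the floor. They were those of IER2, JUND, JUNB and FOS, and that of FOSL2, whose fold enrichment was the lowest of the 10. It was highest, at 7.46 fragments, at the peak past the 3′ end of EGR1, and reached 6.53 at the most distal JUN peak and 5.60 at the 3′ UTR peak of EGR1. The strongest peaks of FOSL1, FOSB, JUN, ATF3 and EGR1 had backgrounds of 3.98, 4.13, 4.25, 4.48 and 4.66 fragments. Among the genes with a lower fold enrichment than FOS, only FOSL2 was thus at the floor. Whether the background level shaped the order of the fold enrichments was not tested. The distal EGR1 and JUN peaks were measured against a raised background.

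The 8 motifs were also counted within 50 bp of each summit, on both strands. They were the CArG box, the TPA response element (TGANTCA), the cyclic AMP response element (TGACGTCA), the EGR site (GCGGGGGCG), the ETS core (CCGGAAGT), the MYB site (AACGG), the CHR element (TTTGAA or TTCGAA) and the CCAAT box. A MYB site lay at 7 of the 35 summits (20.0%), against 5.08% of all 66954 summits. Among the 24 peaks at a promoter it lay at 4 summits (16.7%), 1 of them that of IER2, against 8.38% of 20723 peak summits at coding promoters. A CHR element lay at 4 of the 35 summits (11.4%, against 9.68% of all summits), a TPA response element at 1 (2.86%, against 3.36%) and a CCAAT box at 1 (2.86%, against 13.03%). Among the 24 promoter peaks, a CHR element lay at 3 summits (12.5%, against 6.24% of summits at coding promoters). A TPA response element lay at 1 of the 24 (4.17%, against 1.75%) and a CCAAT box at 0 (against 10.2%). The other 4 motifs were at 0 of the 35 summits. The strongest summit held none of the 8 motifs in 8 of the 10 genes, and those of FOSB and IER2 held a MYB site. Summits without any of the motifs were not counted over other genes, so this count has no background and marks no trait of the 10 genes. In the promoter window the TPA response element occurred in FOSL1 and FOSL2 (5.41% of coding promoters), and the EGR site and ETS core in none of the 10 (7.91% and 6.18%). Such matches describe letters in these windows and not binding by a factor.

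The median GC content of the 10 promoters was 69.0% (62.0 to 77.0%), against 63.7% for coding genes, and the median CpG observed/expected ratio was 0.814 (0.619 to 1.11), against 0.777. JUND had the highest GC content and JUN the lowest.

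Related gene lists were described in the same way. Of 25 other immediate early and early response genes (MAFF also counted among the leucine zipper partners), 22 had a promoter peak and 8 had at least 50% of the body under peaks, with a median of 15.8%. The shares were 59.4% and 2.96% of all coding genes, and 43.1% and 8.80% of those of at most 10 kb. The 2.96% and 8.80% are over sets that include genes without a promoter peak. Of the 25 genes, 17 were at most 10 kb long, and 7 of these had at least 50% covered. DUSP6, a phosphatase that limits ERK signalling, was covered over 100% by a peak of 10968 bp, KLF6, a zinc finger factor gene, over 98.9%, and IER3, an apoptosis regulator gene, over 76.3%. DUSP2, KLF2 and KLF4 had no peak. Extensive coverage was thus present in several early response genes outside the AP-1 group and absent from others.

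Of 10 other leucine zipper partners of AP-1, 7 had a promoter peak, and the median share covered was 2.24%. ATF4, the stress response factor gene, was covered over 68.4%, MAFG over 25.2% and MAFK over 5.73%, while BATF, BATF2 and BATF3 had no peak. Of 5 other EGR genes and EGR corepressors, 3 had a promoter peak, and the median share covered was 0.412%. The corepressor genes NAB2 and NAB1 were covered over 64.5% and 3.51% and EGR3 over 0.412%, while EGR2 and EGR4 had no peak. All 10 genes for upstream kinases and factors had a promoter peak, with a median of 3.37% and at most 14.8% of the body covered, in ELK3. SRF, the gene for serum response factor, was covered over 10.4%, and CREB1 over 5.39%. For these 3 lists too the background was a promoter peak at 59.4% of all coding genes and at 78.4% of those with a CpG-rich promoter. The median share covered was 0.880% over all coding genes and 3.07% over those with a promoter peak.

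**Figure D5:**
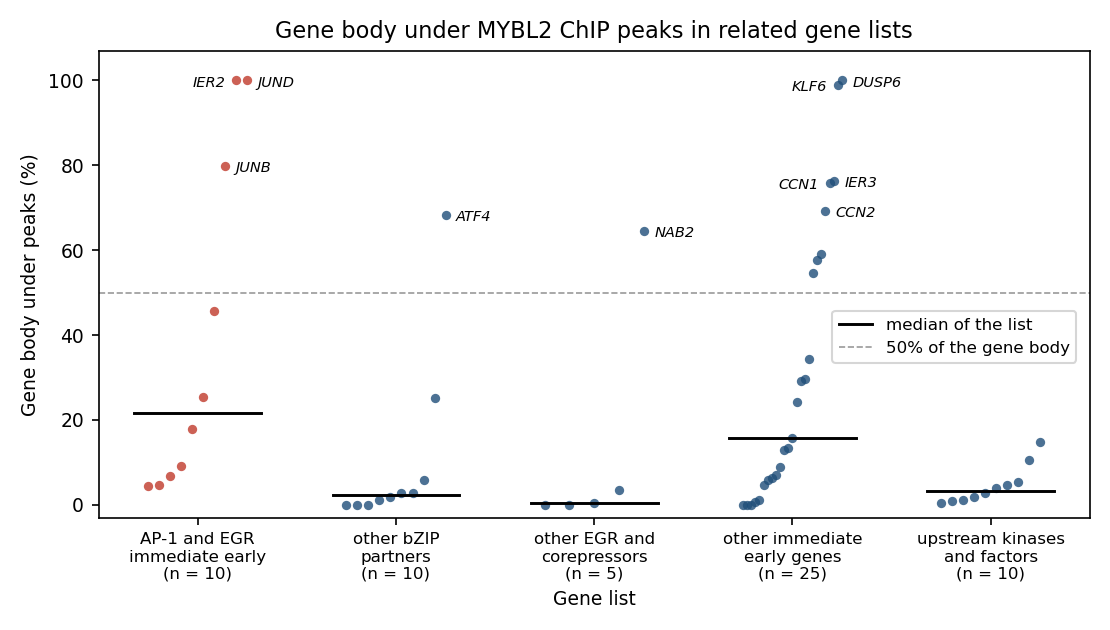
Share of the gene body under MYBL2 peaks (%) for each gene of the 10 immediate early AP-1 and EGR genes and of 4 related lists, with the list median as a bar. Genes above 50% occur in every list except the upstream kinases and factors, where the highest value is 14.8%.

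The coding genes most like the 3 well-covered members were ranked by share of body covered, widest peak and largest fold enrichment against the medians of JUNB, JUND and IER2 (100%, 3938 bp and 24.7), among 708 genes of similar length. The nearest was ENSG00000285133, with 96.0% covered, a widest peak of 3471 bp and a fold enrichment of 24.2. It was followed by the ribosomal protein genes RPL10A (100%, 5124 bp, 26.8), RPS16 (92.0%, 3085 bp, 22.9) and RPL23A (83.3%, 4296 bp, 25.3), and by CYC1 (100%, 5141 bp, 22.2), which encodes a respiratory chain subunit.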

How the data were processed

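One MYBL2 ChIP library and one input library of A673 cells were analysed through the deposited peak list. Per the labels and the study's methods, the authors aligned reads to hg19 with Bowtie2 (2.1.10) and called narrow peaks with MACS2 (2.0.10) against the input. What a further cleaning of the list removed is not given in the sources used here. The deposited fold enrichment is a linear ratio, the −log10 p-value and −log10 q-value were deposited as MACS2 wrote them, and the authors' score holds the −log10 q again, scaled and cut to a whole number. The weakest deposited q-value was 0.0493.

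Pileups were recovered as the whole numbers that solved both the deposited fold enrichment and the p-value, which worked for all 66954 peaks, and −log10 p was then off by at most 3.49e-05. The background floor of 3.45 fragments corresponds to about 56800000 ChIP reads, taking the smallest peak width (164 bp) as the fragment length and 2700000000 bp as the genome size. Poisson intervals (95%) rest on these pileups, treat the background as known and leave out every source of error but counting (fragments copied by PCR are not separate molecules).

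Genes, TSSs and canonical transcripts came from GENCODE 44 lifted to GRCh37, for coding and lncRNA genes on 23 chromosomes, and sequences from the GRCh37 assembly. No peak lay beyond a chromosome end. Motifs were sought from 250 bp before to 50 bp after each canonical TSS and in windows of 101 bp at summits. Python (3.11.15), numpy (2.4.6), pandas (2.3.3), scipy (1.17.1) and matplotlib (3.10.9) were used, and overlap and pileup recovery were tested on simulated data. The genes named were the 10 members, the 3 with the largest share covered and up to 3 with no peak from each related list, the 5 coding genes most like the well-covered members, and neighbours whose promoters share a peak. CCN1 and CCN2, labelled in a plot, were chosen after their values were seen. The members and lists were chosen with earlier results of these data known. Alternatives were stricter peaks, other promoter windows, canonical starts or transcripts, promoter peaks alone, peak merging, short genes, and CpG-rich promoters, the last chosen after seeing the data. The values over coding genes with a promoter peak and over all summits were added later as well.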

Additional observations from a re-analysis of the deposited data

How the results depend on the processing

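All 10 genes kept a promoter peak except when the summit itself had to lie in the window, which left 9 (IER2 was lost), and 3 genes had at least 50% of the body covered under each setting tried. Requiring a fold enrichment of at least 5 lowered the median share covered from 21.7% to 9.45%, with EGR1 at 0%, JUN at 9.76%, FOSL2 at 2.65% and ATF3 at 2.04%. At that level the promoter peaks kept by FOSB and EGR1 were not the peaks over their starts. The background share of coding genes with a promoter peak was 56.0% with −log10 q of at least 5, 49.6% with fold enrichment of at least 5, 58.1% with a window of 500 bp, 55.8% with canonical starts, 58.6% with the summit in the window, 43.1% in genes of at most 10 kb and 78.4% with CpG-rich promoters. The share with at least 50% of the body covered was 2.42% with −log10 q of at least 5, 1.83% with fold enrichment of at least 5, 3.29% over canonical transcripts and 8.80% in genes of at most 10 kb. With canonical transcripts JUN was covered over 46.4% and FOSL2 over 3.12%. With promoter peaks alone the FOSL1 fold enrichment was 8.50. Merging peaks within 100 bp changed no value, since the smallest gap was 102 bp. No paired analysis was possible because there was 1 ChIP and 1 input library. The median peak had a pileup of 20 fragments (interval 12.2 to 30.9), so small differences among low peaks could not be detected.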

Other observations

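The surroundings of the genes differed as well. Within 10 kb of the gene ends, JUND had 12 peaks beyond its own and JUNB had 8, while IER2 had 4, ATF3 had 2, and FOS, FOSB, FOSL1 and FOSL2 had 1 each. JUN and EGR1 had 0, so all peaks within 10 kb of these genes were the ones already counted. Such counts were not made over other coding genes and take no account of local gene density. They therefore do not show whether any of these numbers is unusual.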
